A study of Homo sapiens with 6 samples.

Results

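Antisense RNA genes are described here in MDA-MB-231 cells, a human triple-negative breast cancer line, after transfection with the siRNAs siATM or sip53. They were taken as every gene whose symbol in the platform annotation ends in -AS or in -AS plus a digit, which gave 489 of 14884 named genes. The rule used symbols alone and no measured value. Cells were transfected by Lipofectamine RNAiMAX with siATM, an siRNA against ATM, with sip53, or with the control siRNA siNC, and each siRNA has 2 samples, each on 1 Affymetrix Human Gene ST array. All 3 groups are the same line under the same transfection. The transcripts targeted by the siRNAs are not analysed here, so the depth of either knockdown is not given. Whether a group's samples are separate cultures is not in the labels, and p-values then reflect only how far these samples differ, which may be technical.

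An antisense gene is transcribed from the strand opposite to a neighbouring gene, its sense partner, whose symbol it borrows. Most antisense RNAs are long non-coding RNAs. Some share a bidirectional promoter with the partner and start beside it in the other direction, others run back across the partner's exons, and single examples are known to hold or release chromatin modifiers, pair with the partner's messenger RNA or bind microRNAs. ATM is a kinase activated by breaks in both DNA strands.

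RefSeq classes 481 of the 489 genes as long non-coding RNA and 8 as antisense RNA. The partner, the gene named before the hyphen, was itself named in the annotation for 322 of them, which gave 310 distinct partners. Values are log2 signals, and genes were tested where the mean of the 6 arrays reached 5.96, the median over all probe sets. That kept 246 antisense genes, or 50.3%, against 71.5% of all named genes. Of the partners 242 were tested, and 150 pairs had both genes tested. Among the tested antisense genes 18 had at least 1 group mean below the filter. The medians of the 6 arrays lay between 5.95 and 5.98. The line's mesenchymal markers VIM, CD44, AXL, MSN, ANXA1 and S100A4 passed the filter, while ESR1, PGR and FOXA1, markers of luminal breast cells, did not. KRT8, KRT18, KRT19, EPCAM and GATA3, also luminal markers, did pass it. The monocyte gene CD14 averaged 9.53 in siATM, 7.56 in sip53 and 8.34 in siNC arrays. LYZ, also on the haematopoietic list, passed the filter at 7.35, 6.82 and 6.97 in the same order. So did the endothelial gene PECAM1, at 6.06, 6.54 and 6.53, while the endothelial gene VWF did not. The part of these genes in the results was not tested.

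The promoters below are printed because the antisense gene and its partner start close together there and the results turn on these genes. They come from RefSeq on GRCh38.p14, each on the strand named and 5′ to 3′. Capitals mark the first 30 transcribed bases. Where both ends are in capitals, the capitals on the left are the partner's first bases as read on the other strand. In order, they are the promoter of TMPO (chr12:98515340-98515619, plus strand), the whole interval between the starts of LPP and LPP-AS2 (chr3:188154059-188154186, minus strand), that between WWTR1 and WWTR1-AS1 (chr3:149657996-149658239, plus strand), that between RBM26 and RBM26-AS1 (chr13:79406226-79406338, plus strand) and the promoter of ZNF143-AS1 (chr11:9460669-9460948, minus strand).
TMPO: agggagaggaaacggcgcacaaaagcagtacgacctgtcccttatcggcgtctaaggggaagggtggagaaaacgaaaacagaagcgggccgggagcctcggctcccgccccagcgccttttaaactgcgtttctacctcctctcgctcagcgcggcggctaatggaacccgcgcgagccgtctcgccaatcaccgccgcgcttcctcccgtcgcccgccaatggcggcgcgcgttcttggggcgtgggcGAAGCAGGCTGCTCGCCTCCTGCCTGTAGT
LPP to LPP-AS2: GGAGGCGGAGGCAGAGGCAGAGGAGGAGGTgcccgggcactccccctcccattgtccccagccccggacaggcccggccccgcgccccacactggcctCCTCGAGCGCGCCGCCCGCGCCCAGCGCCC
WWTR1 to WWTR1-AS1: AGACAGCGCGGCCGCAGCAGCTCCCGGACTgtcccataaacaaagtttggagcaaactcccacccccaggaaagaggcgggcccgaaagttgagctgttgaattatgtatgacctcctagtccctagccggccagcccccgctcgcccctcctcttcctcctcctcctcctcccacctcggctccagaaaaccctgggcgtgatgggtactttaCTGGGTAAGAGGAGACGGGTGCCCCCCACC
RBM26 to RBM26-AS1: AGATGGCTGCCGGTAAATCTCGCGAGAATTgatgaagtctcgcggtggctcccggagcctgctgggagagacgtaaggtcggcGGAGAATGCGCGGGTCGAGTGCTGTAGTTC
ZNF143-AS1: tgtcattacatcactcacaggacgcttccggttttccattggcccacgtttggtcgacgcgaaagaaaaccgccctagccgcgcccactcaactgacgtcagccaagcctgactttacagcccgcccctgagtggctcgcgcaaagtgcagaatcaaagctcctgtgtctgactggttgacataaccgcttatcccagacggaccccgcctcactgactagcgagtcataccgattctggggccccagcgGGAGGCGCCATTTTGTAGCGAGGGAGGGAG
The starts of RBM26 and RBM26-AS1 lie 54 bases apart, those of LPP and LPP-AS2 69, those of WWTR1 and WWTR1-AS1 185 and those of ZNF143 and ZNF143-AS1 314, each pair pointing away from each other. The starts of TMPO and TMPO-AS1 are 636 bases apart and the transcripts overlap at their beginnings. The TMPO window holds CCAAT 2 times and 34 CpG in 280 bases. The ZNF143-AS1 window holds CCAAT 1 time, on the other strand, where it reads ATTGG. This motif was chosen for the search after the data were seen. Over windows of 300 bases, CCAAT on either strand stood in 22.9% of 83 head-to-head antisense genes, 34.5% of 374 antisense genes in the RefSeq table and 35.7% of 27305 genes. The median number of CpG was 28, 15 and 14 in the same sets.

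siATM changed 54 of the 246 tested antisense genes against siNC, with 34 higher and 20 lower. That is 22.0%, against 25.5% of all 10640 genes tested, so the share of antisense genes called was near the background. The order of these shares turned with the filter and with 1 array: at the 70th percentile 35 of 75 antisense genes were called, 46.7%, against 39.8% of all genes, and without siNC replicate 2 the shares were 15.0% and 14.0%. Among all genes 12.5% were called higher and 13% lower. sip53 changed 15 antisense genes, 9 higher and 6 lower, which is 6.10%, against 10.6% of all genes, of which 5.47% were called higher and 5.11% lower. Calls are from limma with an adjusted p below 0.05 over all genes. The arrays did not overlap between the groups in 144 of the 246 antisense genes for siATM and in 122 for sip53, against 62.7% and 58.9% of all genes. The median log2 difference of the antisense genes was 0.02 for siATM and 0.01 for sip53, both against siNC. Over all genes it was -0.00 and 0.01. Called changes of at least 1.5-fold were few, as they were over all genes. Under siATM 3 antisense genes rose and 4 fell by that much, beside 134 and 211 of all 10640 genes. Under sip53 0 rose and 2 fell, beside 60 and 85 of all genes. Of the 54 siATM calls 19 held in all 6 refits that left out 1 array each, and of the 15 sip53 calls 2 did. Without 1 siNC array, replicate 1, 21 antisense genes (8.54%, against 13.5% of all genes) were called for siATM, and without sip53 replicate 1 only 3 were called for sip53. All genes were also called less often in that sip53 refit. Of the antisense genes called in the main fit, 4 under siATM and 1 under sip53 had a group mean below the filter.

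**Figure D1:**
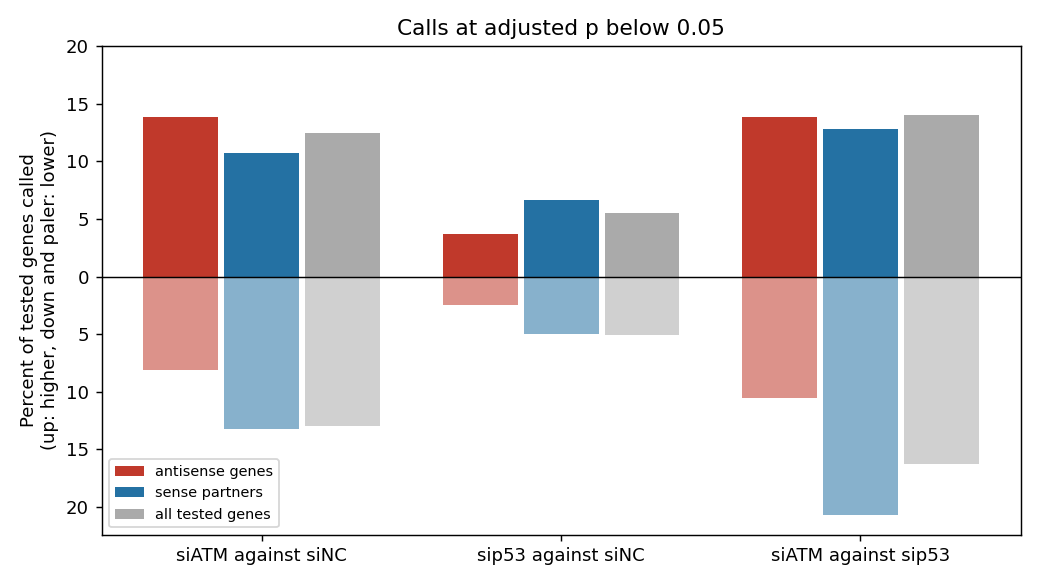
Percent of tested genes called at an adjusted p below 0.05 in each comparison, for antisense genes (n = 246), sense partners (n = 242) and all tested genes (n = 10640). Bars above 0 are higher and paler bars below 0 are lower in the group named first; for siATM against siNC the antisense genes reach 22.0% in all and all genes 25.5%.

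USP30-AS1 and FGD5-AS1 fell furthest under siATM. USP30-AS1, named for a mitochondrial deubiquitinase, measured 7.19 and 7.16 in siATM, 7.90 and 7.93 in sip53, and 8.15 and 8.04 in siNC arrays. The siATM arrays lay below all others, and the log2 change against siNC was -0.92 (SE 0.06, adjusted p = 0.000278), a 1.89-fold fall. FGD5-AS1, an RNA described as a microRNA sponge in tumour cells, measured 9.25 and 9.08 in siATM, 10.04 and 9.99 in sip53, and 10.04 and 10.01 in siNC arrays. Its change under siATM was -0.86 (SE 0.07, adjusted p = 0.000547), and the sip53 and siNC arrays overlapped. SLCO4A1-AS1 measured 7.50 and 7.38 in siATM, 7.51 and 7.68 in sip53, and 8.07 and 8.34 in siNC arrays. It was the only antisense gene past 1.5-fold under both siRNAs, with -0.76 for siATM (SE 0.10, adjusted p = 0.00257) and -0.61 for sip53 (SE 0.10, adjusted p = 0.0131). The sip53 call was lost without siNC replicate 2 (adjusted p = 0.0618) and without sip53 replicate 1 (adjusted p = 0.0839).

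The other large falls under siATM were those of NHSL1-AS1 (-0.59), PTPRG-AS1 (-0.49), SH3PXD2A-AS1 (-0.49), PSMB8-AS1 (-0.49), TMPO-AS1 (-0.44), SOCS2-AS1 (-0.42), PCNA-AS1 (-0.38), NPPA-AS1 (-0.36) and PAXIP1-AS2 (-0.34), on the log2 scale. PTPRG-AS1, named for a receptor tyrosine phosphatase, measured 6.024 and 5.995 in siATM, 6.68 and 6.67 in sip53, and 6.57 and 6.43 in siNC arrays (adjusted p = 0.00232 against siNC). PSMB8-AS1, named for an immunoproteasome subunit, measured 7.56 and 7.74 in siATM, 8.11 and 8.15 in sip53, and 8.15 and 8.12 in siNC arrays (adjusted p = 0.00345 against siNC). In both genes siATM was called against siNC and sip53 was not. The siATM calls of NHSL1-AS1 and NPPA-AS1 were lost without siNC replicate 1, at adjusted p of 0.0546 and 0.0682. PCNA-AS1 lost its call without siATM replicate 1 (adjusted p = 0.0618) or siNC replicate 1 (adjusted p = 0.0824), and PAXIP1-AS2 without the same arrays (adjusted p of 0.0548 and 0.0798). SOCS2-AS1 lost it without siATM replicate 1, siNC replicate 1 or siNC replicate 2, at adjusted p of 0.0778, 0.0781 and 0.14, and its change was -0.25 without siATM replicate 1.

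SH3BP5-AS1, TPT1-AS1 and ALOX12-AS1 rose furthest under siATM. SH3BP5-AS1, named for an adaptor that inhibits the kinase BTK, measured 8.54 and 8.32 in siATM, 7.72 and 7.67 in sip53, and 7.55 and 7.51 in siNC arrays. The siATM arrays lay above all others, and the change against siNC was 0.90 (SE 0.08, adjusted p = 0.000628), a 1.87-fold rise. TPT1-AS1, named for the translationally controlled tumour protein, measured 8.42 and 8.35 in siATM, 7.58 and 7.68 in sip53, and 7.76 and 7.59 in siNC arrays, a rise of 0.70 under siATM (SE 0.08, adjusted p = 0.00119). ALOX12-AS1, named for an arachidonate lipoxygenase, measured 8.42 and 8.44 in siATM, 7.69 and 7.81 in sip53, and 7.73 and 7.81 in siNC arrays, a rise of 0.66 (SE 0.07, adjusted p = 0.000923). For both genes the sip53 arrays overlapped with the siNC arrays.

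The next highest under siATM were CCDC18-AS1 (0.58), PSMG3-AS1 (0.55), ELOA-AS1 (0.53), TMEM147-AS1 (0.52), HAS2-AS1 (0.48), TGFB2-AS1 (0.47), RAB11B-AS1 (0.45), PSMA3-AS1 (0.45) and SERTAD4-AS1 (0.43). TMEM147-AS1 measured 8.32 and 8.43 in siATM, 7.92 and 7.79 in sip53, and 7.93 and 7.78 in siNC arrays (adjusted p = 0.00423 for siATM against siNC). PSMA3-AS1, named for a proteasome core subunit, measured 8.63 and 8.45 in siATM, 8.21 and 8.14 in sip53, and 8.08 and 8.10 in siNC arrays (adjusted p = 0.00509). Both were highest in the siATM arrays. CCDC18-AS1 lost its call without siATM replicate 2 (adjusted p = 0.0534) or siNC replicate 1 (adjusted p = 0.064), and SERTAD4-AS1 without siNC replicate 2 (adjusted p = 0.0649). RAB11B-AS1, whose sip53 mean lies below the filter, lost it without siATM replicate 2, siNC replicate 1 or siNC replicate 2, at adjusted p of 0.0651, 0.113 and 0.0951, and its change was 0.27 without siATM replicate 2.

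**Figure D2:**
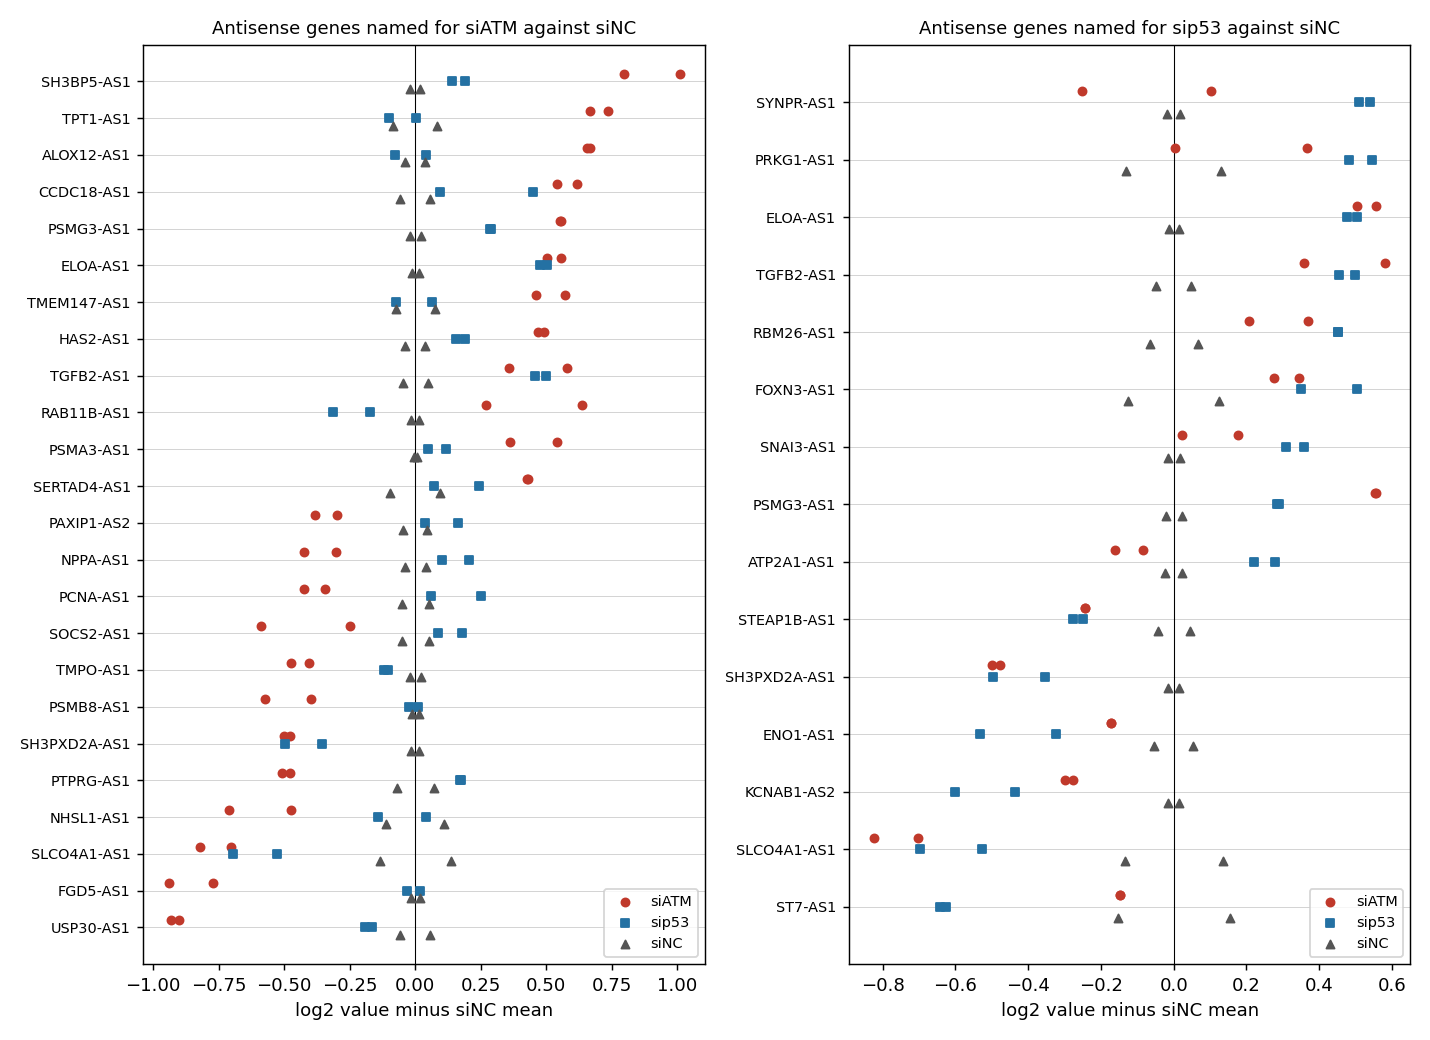
Log2 value of each array minus the mean of the siNC arrays (x axis) for the antisense genes with the largest called changes (rows), 24 for siATM on the left and 15 for sip53 on the right; red circles are siATM, blue squares sip53 and grey triangles siNC arrays (2 each). USP30-AS1 and FGD5-AS1 lie lowest and SH3BP5-AS1 highest in siATM arrays, while ELOA-AS1 is high in both knockdowns.

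Under sip53 the 9 antisense genes called higher were SYNPR-AS1 (0.52), PRKG1-AS1 (0.51), ELOA-AS1 (0.49), TGFB2-AS1 (0.48), RBM26-AS1 (0.45), FOXN3-AS1 (0.43), SNAI3-AS1 (0.33), PSMG3-AS1 (0.29) and ATP2A1-AS1 (0.25). The 6 called lower were ST7-AS1 (-0.63), SLCO4A1-AS1 (-0.61), KCNAB1-AS2 (-0.52), ENO1-AS1 (-0.43), SH3PXD2A-AS1 (-0.43) and STEAP1B-AS1 (-0.26). ELOA-AS1, named for a subunit of the elongin transcription factor, measured 8.14 and 8.09 in siATM, 8.07 and 8.09 in sip53, and 7.57 and 7.60 in siNC arrays. Both knockdowns lay above siNC, with 0.53 for siATM (SE 0.06, adjusted p = 0.00109) and 0.49 for sip53 (SE 0.06, adjusted p = 0.00326), and these comparisons share the siNC arrays. KCNAB1-AS2, named for a potassium channel beta subunit, measured 6.24 and 6.27 in siATM, 6.11 and 5.94 in sip53, and 6.53 and 6.56 in siNC arrays. It was lowest under sip53, at -0.52 (SE 0.07, adjusted p = 0.00594). These are the antisense genes whose sip53 call held in each of the 6 refits.

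The other 13 sip53 calls each depended on at least 1 array. TGFB2-AS1, named for a transforming growth factor, measured 8.20 and 7.98 in siATM, 8.08 and 8.12 in sip53, and 7.67 and 7.57 in siNC arrays. Its sip53 rise had an adjusted p of 0.0145, and between 0.0592 and 0.0954 without any 1 sip53 or siNC array. PSMG3-AS1 measured 7.21 and 7.22 in siATM, 6.95 and 6.95 in sip53, and 6.64 and 6.68 in siNC arrays, in that order of levels. It rose by 0.55 under siATM (SE 0.05, adjusted p = 0.000923) and by 0.29 under sip53 (SE 0.05, adjusted p = 0.0194), and the sip53 call was lost without any 1 sip53 or siNC array (adjusted p of 0.0792 to 0.123). ATP2A1-AS1, PRKG1-AS1, SNAI3-AS1, STEAP1B-AS1 and SYNPR-AS1 likewise lost their sip53 call without any 1 sip53 or siNC array, at adjusted p between 0.0765 and 0.223. ENO1-AS1, FOXN3-AS1, RBM26-AS1 and SH3PXD2A-AS1 each lost it without 3 of those arrays and ST7-AS1 without either sip53 array, at adjusted p between 0.0543 and 0.18.

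Antisense gene and partner were both called in 13 of the 150 pairs under siATM. In 9 they moved the same way, 4 up and 5 down, and in 4 they moved in opposite directions. In 17 pairs the antisense gene was called without its partner and in 20 the partner without the antisense gene. Of the 242 tested partners 26 were called higher and 32 lower under siATM, and 16 higher and 12 lower under sip53. That is 23.97% under siATM, against 25.5% of all genes, and 11.57% under sip53, against 10.6%. Both shares of partners called were near the background. Under sip53 both genes were called in 1 pair, the antisense gene alone in 4 and the partner alone in 13. The log2 changes of antisense gene and partner had the same sign in 62.7% of pairs for siATM and 55.3% for sip53. Across the pairs Pearson's r was 0.24 and Spearman's rho 0.32 for siATM, and 0.25 and 0.27 for sip53, as descriptions over 150 pairs that share the same arrays. The labels do not say whether the labelled cDNA kept its strand, so where exons of a pair overlap the signals of its genes cannot surely be told apart. In RNA of whole cultures, fewer cells with an RNA and less of it per cell cannot be told apart either.

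**Figure D3:**
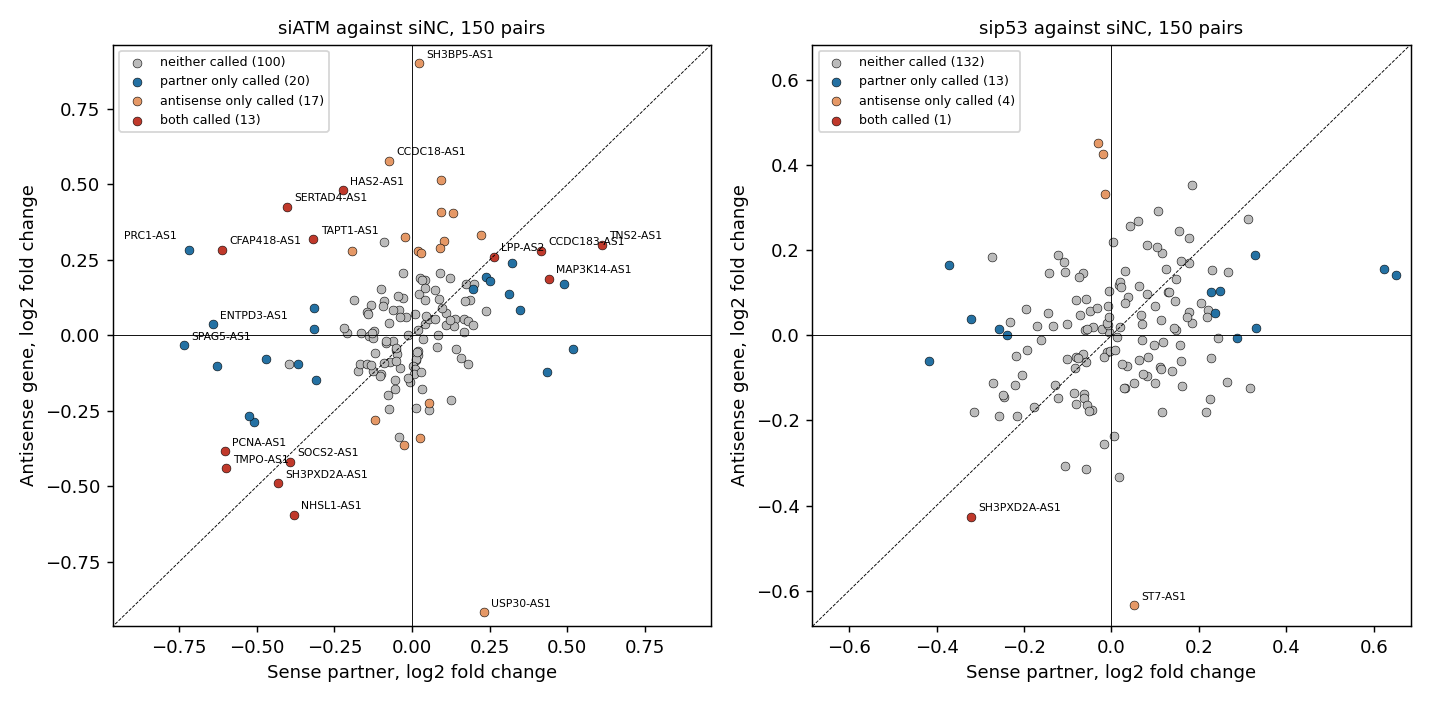
Log2 change of the antisense gene (y axis) against that of its sense partner (x axis) in 150 pairs, for siATM (left) and sip53 (right) against siNC; the axes of the panels differ in range, colours show which gene of a pair was called, and the dashed line marks equal change. Under siATM 13 pairs had both genes called, with PCNA, TMPO, SOCS2, SH3PXD2A and NHSL1 at the lower left; under sip53 SH3PXD2A alone did.

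The pairs of TMPO and PCNA, genes of dividing cells, fell together under siATM. TMPO, which encodes a lamina-associated protein, measured 9.34 and 9.25 in siATM, 10.01 and 9.99 in sip53, and 9.94 and 9.85 in siNC arrays. TMPO-AS1, which starts 636 bases from it on the other strand, measured 8.43 and 8.36 in siATM, 8.73 and 8.71 in sip53, and 8.85 and 8.81 in siNC arrays. Both were lowest in the siATM arrays, by -0.60 for TMPO (SE 0.06, adjusted p = 0.00111) and -0.44 for TMPO-AS1 (SE 0.06, adjusted p = 0.00229). PCNA, the sliding clamp of DNA replication, measured 10.40 and 10.23 in siATM, 11.01 and 11.07 in sip53, and 10.98 and 10.86 in siNC arrays. PCNA-AS1 measured 7.76 and 7.84 in siATM, 8.24 and 8.43 in sip53, and 8.23 and 8.13 in siNC arrays. The falls were -0.60 for PCNA (SE 0.08, adjusted p = 0.00213) and -0.38 for PCNA-AS1 (SE 0.08, adjusted p = 0.0136). The antisense change minus the partner change was 0.16 for TMPO (95% interval -0.06 to 0.37) and 0.22 for PCNA (-0.04 to 0.48), so neither interval left out 0.

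SH3PXD2A and its antisense gene fell together in both knockdowns. SH3PXD2A, a scaffold protein of invasive cell protrusions, measured 7.52 and 7.48 in siATM, 7.58 and 7.64 in sip53, and 7.92 and 7.95 in siNC arrays. SH3PXD2A-AS1 measured 6.62 and 6.60 in siATM, 6.60 and 6.74 in sip53, and 7.11 and 7.08 in siNC arrays. In both genes the siNC arrays were the highest. Against siNC the antisense gene changed by -0.49 under siATM (SE 0.07, adjusted p = 0.00252) and by -0.43 under sip53 (SE 0.07, adjusted p = 0.00948), and the partner by -0.43 (SE 0.06, adjusted p = 0.00239) and -0.32 (SE 0.06, adjusted p = 0.0155). Without any 1 sip53 or siNC array the partner's sip53 call was lost (adjusted p of 0.0777 to 0.114).

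LPP and LPP-AS2, which start from the short interval printed above, rose by nearly the same amount under siATM. LPP, a focal adhesion protein, measured 7.45 and 7.43 in siATM, 7.04 and 7.07 in sip53, and 7.19 and 7.16 in siNC arrays. LPP-AS2 measured 8.64 and 8.64 in siATM, 8.55 and 8.58 in sip53, and 8.36 and 8.40 in siNC arrays. Both rose by 0.26 under siATM (SE 0.05 for LPP and 0.06 for LPP-AS2), with adjusted p of 0.0128 and 0.0138, and lost the call without either siNC array (adjusted p of 0.053 to 0.0823). Under sip53 the antisense change minus the partner change was 0.31 (95% interval 0.09 to 0.53), although neither gene was called. TNS2, another focal adhesion protein, rose by 0.61 and TNS2-AS1 by 0.30. MAP3K14, a kinase of non-canonical NF-kappaB signalling, rose by 0.44 and MAP3K14-AS1 by 0.19. CCDC183 rose by 0.42 and CCDC183-AS1 by 0.28, while NHSL1 fell by 0.38 and NHSL1-AS1 by 0.59. SOCS2, a suppressor of cytokine signalling, fell by 0.39 and SOCS2-AS1 by 0.42. Without siNC replicate 1 CCDC183 was 0.25 higher (adjusted p = 0.0814) and CCDC183-AS1 0.18 higher (adjusted p = 0.155), and neither was called. CCDC183 was also not called without either siATM array (adjusted p of 0.0942 and 0.0698), nor CCDC183-AS1 without any 1 siATM or sip53 array (adjusted p of 0.0541 to 0.0907). NHSL1 and TNS2-AS1 lost their calls without siNC replicate 1 (adjusted p of 0.0544 and 0.0553), and SOCS2 without either siNC array or siATM replicate 1, at adjusted p of 0.0693 to 0.121. MAP3K14-AS1 lost its call in each of the 6 refits (adjusted p of 0.0583 to 0.189), and without siNC replicate 1 both genes were called in 2 same-direction pairs.

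In 4 pairs the antisense gene rose and the partner fell under siATM. Such pairs numbered 0 without siNC replicate 2, and 2 without siATM replicate 1, without siNC replicate 1 or without a filter. CFAP418-AS1 measured 6.56 and 6.61 in siATM, 6.43 and 6.51 in sip53, and 6.31 and 6.28 in siNC arrays. Its partner CFAP418, a protein of the photoreceptor cilium, measured 6.87 and 6.80 in siATM, 7.66 and 7.58 in sip53, and 7.48 and 7.41 in siNC arrays. The siATM arrays were highest for the antisense gene and lowest for the partner, and the difference of changes was 0.90 (95% interval 0.66 to 1.13). CFAP418-AS1 lost its call without siNC replicate 1 (adjusted p = 0.0589) or siNC replicate 2 (adjusted p = 0.0748). SERTAD4-AS1 measured 8.01 and 8.01 in siATM, 7.65 and 7.82 in sip53, and 7.68 and 7.49 in siNC arrays. SERTAD4, a SERTA domain protein, measured 7.77 and 7.81 in siATM, 8.78 and 8.85 in sip53, and 8.23 and 8.15 in siNC arrays. SERTAD4 thus fell by 0.40 under siATM (SE 0.06, adjusted p = 0.00414) and rose by 0.62 under sip53 (SE 0.06, adjusted p = 0.00241), while its antisense gene was called only for siATM.

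HAS2 and TAPT1 were the other opposed pairs. HAS2-AS1 measured 6.66 and 6.64 in siATM, 6.36 and 6.33 in sip53, and 6.21 and 6.13 in siNC arrays, a rise of 0.48 under siATM (SE 0.06, adjusted p = 0.0017). HAS2, a hyaluronan synthase, measured 7.72 and 7.85 in siATM, 7.87 and 7.93 in sip53, and 7.99 and 8.03 in siNC arrays, a fall of 0.22 (SE 0.07, adjusted p = 0.0455). The fall of HAS2 was lost without any 1 array but siATM replicate 2 (adjusted p of 0.0758 to 0.179), while the difference of changes was 0.70 (95% interval 0.46 to 0.94). TAPT1-AS1 rose by 0.32 and TAPT1, a membrane protein tied to ciliary function, fell by 0.32 on the log2 scale, with a difference of 0.64 (95% interval 0.37 to 0.90). Without siATM replicate 1 or siNC replicate 1 neither TAPT1-AS1 (adjusted p of 0.0786 and 0.106) nor TAPT1 (0.0645 and 0.0881) was called, and TAPT1 was not called without siNC replicate 2 (0.0689).

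The 95% interval of the difference of changes left out 0 in 35 of 150 pairs under siATM, with the antisense gene above its partner in 26 and below it in 9. Each interval was taken alone, with no adjustment over the pairs, so some would leave out 0 by chance. No such rate was measured for other pairs of genes. In USP30 the difference was the lowest, at -1.15 (95% interval -1.37 to -0.93). USP30 measured 8.16 and 8.18 in siATM, 8.14 and 8.17 in sip53, and 8.03 and 7.85 in siNC arrays, and its change of 0.23 under siATM missed the threshold (adjusted p = 0.0527). In PRC1, a microtubule bundler of dividing cells, the difference was the highest, at 1.00 (95% interval 0.75 to 1.26). PRC1 measured 10.34 and 10.41 in siATM, 11.03 and 11.02 in sip53, and 11.05 and 11.13 in siNC arrays, whereas PRC1-AS1 measured 7.01 and 6.85 in siATM, 6.75 and 6.64 in sip53, and 6.55 and 6.74 in siNC arrays. The partner fell by 0.72 (SE 0.06, adjusted p = 0.000598), and the antisense gene was 0.28 higher without passing the test (adjusted p = 0.0547). SH3BP5 measured 7.38 and 7.38 in siATM and 7.37 and 7.34 in siNC arrays, so the difference of 0.88 (95% interval 0.60 to 1.16) came with a partner change of 0.02. NEBL, an actin-binding protein, rose by 0.52 beside -0.04 for NEBL-AS1, and PDCD4, a translation inhibitor, by 0.43 beside -0.12 for PDCD4-AS1. PDCD4 lost its call without any 1 array but siATM replicate 2 (adjusted p of 0.0711 to 0.16), and its change was 0.21 without siATM replicate 1 and 0.66 without siATM replicate 2.

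**Figure D4:**
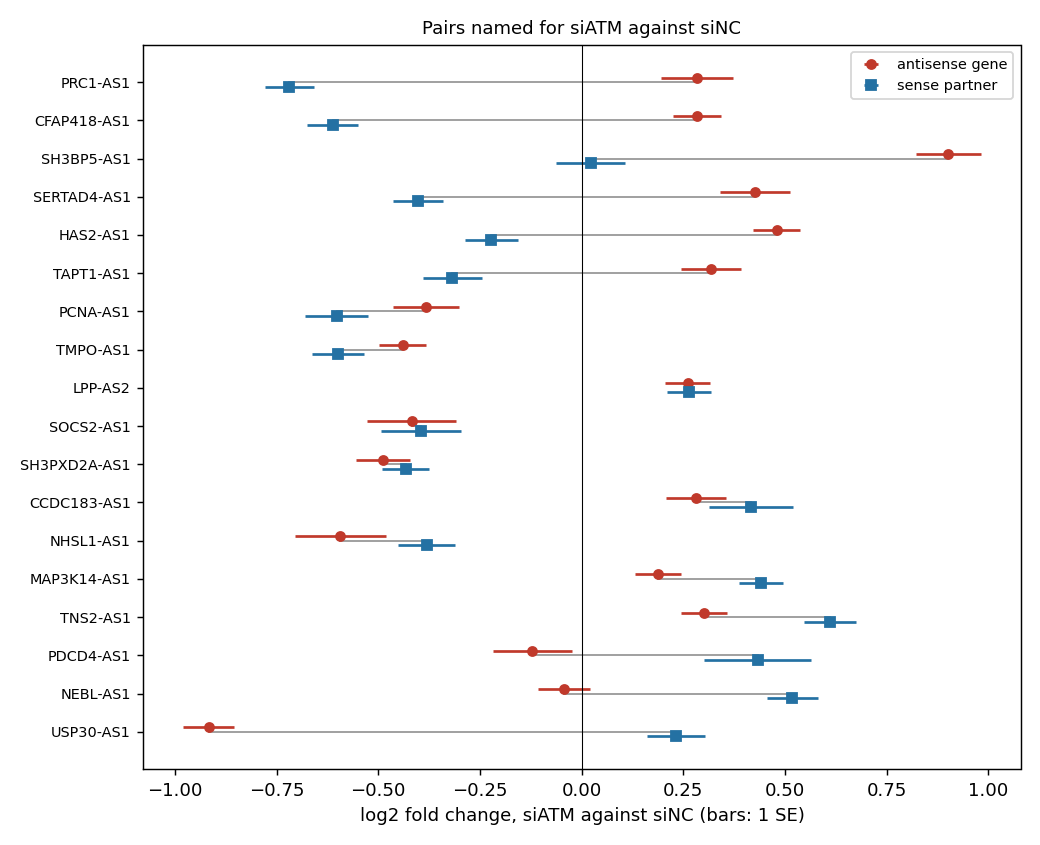
Log2 change under siATM against siNC (x axis) of the antisense gene (red circles) and its sense partner (blue squares) for the 18 pairs with both genes called or with the largest differences, ordered by the difference; bars are 1 moderated SE. USP30-AS1 is far below its partner, while CFAP418-AS1, SERTAD4-AS1, HAS2-AS1 and TAPT1-AS1 lie above 0 with their partners below 0.

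Under sip53 the intervals, again not adjusted over the pairs, left out 0 in 26 pairs, 13 in each direction. ST7-AS1 stood furthest below its partner, at -0.68 (95% interval -0.96 to -0.41). ST7-AS1 measured 6.16 and 6.16 in siATM, 5.66 and 5.68 in sip53, and 6.46 and 6.15 in siNC arrays, so that its sip53 mean is below the filter. ST7, a candidate tumour suppressor, measured 8.05 and 7.93 in siATM, 8.26 and 8.44 in sip53, and 8.31 and 8.30 in siNC arrays, with no call under sip53 (log2 change 0.05, adjusted p = 0.734). GATA3, a luminal transcription factor, rose by 0.65 under sip53 (SE 0.08, adjusted p = 0.00417), and GATA3-AS1 differed by 0.14 (adjusted p = 0.354). RBM26-AS1 measured 7.98 and 7.82 in siATM, 8.06 and 8.06 in sip53, and 7.67 and 7.54 in siNC arrays. RBM26, an RNA-binding protein that starts 54 bases away, measured 9.84 and 9.56 in siATM, 9.62 and 9.54 in sip53, and 9.60 and 9.62 in siNC arrays. The antisense gene rose by 0.45 under sip53 (SE 0.08, adjusted p = 0.0129) with a partner change of -0.03, a difference of 0.48 (95% interval 0.24 to 0.72). The other large differences were those of SERTAD4 (-0.47), STARD4 (0.46) and SH3BP5 (0.54).

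RefSeq start sites place 83 of the 489 antisense genes head-to-head with their partner, on opposite strands and at most 1000 bases apart. In 45 of them the starts point apart and in 38 the beginnings overlap. Another 138 lie on the opposite strand in some other arrangement, and start sites of both genes were not found for 101. Among the pairs with both genes tested, Pearson's r between the changes was 0.61 in 45 head-to-head pairs, 0.13 in 53 other opposite-strand pairs and 0.09 in the 52 without start sites under siATM. Under sip53 the values were 0.20, 0.49 and 0.17, in another order. These are descriptions, and the difference between arrangements was not tested. Head-to-head pairs also came apart: ZNF143-AS1, named for a zinc finger activator of transcription, measured 7.70 and 7.68 in siATM, 7.33 and 7.31 in sip53, and 7.43 and 7.40 in siNC arrays. ZNF143 measured 8.75 and 8.68 in siATM, 8.75 and 8.79 in sip53, and 8.69 and 8.68 in siNC arrays. The antisense gene rose by 0.27 under siATM (SE 0.05, adjusted p = 0.0116), ZNF143 differed by 0.03 (adjusted p = 0.757), and the difference of changes was 0.24 (95% interval 0.03 to 0.46).

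Of 46 antisense RNAs listed for a described role, 34 were named and 19 tested. Under siATM 4 of them fell, FGD5-AS1, TMPO-AS1, PCNA-AS1 and PSMB8-AS1, and 0 rose, which is 21.1% beside 25.5% of all genes. Under sip53 1 fell, ST7-AS1, and 0 rose, which is 5.26% beside 10.6%. Between siATM and sip53 9 differed, 3 higher and 6 lower in siATM, which is 47.4% beside 30.3% of all genes. With 19 genes nothing is read from these shares. The median log2 change of the list was -0.12 for siATM and -0.01 for sip53, against -0.00 and 0.01 over all genes. AFAP1-AS1, described in invasive tumours, measured 9.23 and 9.31 in siATM, 9.32 and 9.35 in sip53, and 9.33 and 9.31 in siNC arrays, and no contrast called it. ZEB1-AS1 and ZEB2-AS1, named for repressors of epithelial genes, differed by 0.08 and -0.12 under siATM (adjusted p of 0.492 and 0.439).

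Families were set by the start of the partner's symbol alone, so a family can hold genes of another function. Grouped in this way, antisense genes of ubiquitin and proteasome genes were called in 4 of 10 tested under siATM, or 40%. That stands beside 25.5% of all genes. Both directions occurred: PSMA3-AS1 and PSMG3-AS1 rose, USP30-AS1 and PSMB8-AS1 fell. For cell cycle, replication and repair genes 0 of 6 rose and 2 fell, PCNA-AS1 and TMPO-AS1, or 33.3%, with a median of -0.16. Of 10 antisense genes of membrane transport genes 0 rose and 2 fell under siATM, KCNAB1-AS2 and SLCO4A1-AS1, or 20%. Under sip53 KCNAB1-AS2 and SLCO4A1-AS1 fell and ATP2A1-AS1, named for a calcium pump, rose, or 30%, beside 10.6% of all genes. Of 9 antisense genes of zinc finger genes ZNF143-AS1 rose under siATM. Of 9 with symbols that start like those of homeobox and developmental transcription factors, LHX4-AS1 and PAXIP1-AS2 fell under siATM and FOXN3-AS1 rose under sip53. PAXIP1 entered this family only because its symbol starts with PAX. Of 4 named for small GTPases and their regulators RAB11B-AS1 rose under siATM. Neither of the 2 tested adhesion and matrix members was called. With 2 to 10 genes each, a family's share moves by at least 10 percentage points with 1 gene, so nothing is read from these shares.

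The direct comparison tested whether the effects of the siRNAs differed. Between siATM and sip53 60 antisense genes differed, 34 higher and 26 lower in siATM, which is 24.4%, against 30.3% of all genes, with 14% of all genes higher and 16.3% lower. Of these calls 26 held in all 6 refits. In 141 of the 246 the siATM and sip53 arrays did not overlap, against 65.4% of all genes. Of the antisense genes called here 5 had a group mean below the filter, among them RAB11B-AS1 and ST7-AS1, whose sip53 means lie below it. Such genes passed the filter through their higher groups. The lowest were FGD5-AS1 (-0.85), USP30-AS1 (-0.74), PTPRG-AS1 (-0.67), SYNPR-AS1 (-0.60) and SOCS2-AS1 (-0.55), and the highest TPT1-AS1 (0.75), SH3BP5-AS1 (0.74), RAB11B-AS1 (0.70), ALOX12-AS1 (0.68) and HIF1A-AS2 (0.64). Each held in all 6 refits except SOCS2-AS1, which was lost without sip53 replicate 2 (adjusted p = 0.0543). HIF1A-AS2, which lies antisense to a hypoxia transcription factor, measured 7.29 and 7.15 in siATM, 6.73 and 6.44 in sip53, and 6.94 and 6.99 in siNC arrays. It was highest in siATM and lowest in sip53 arrays (difference 0.64, SE 0.10, adjusted p = 0.00328), and neither siRNA differed from siNC by the test (adjusted p of 0.107 and 0.0539). ELOA-AS1, TGFB2-AS1, SLCO4A1-AS1 and SH3PXD2A-AS1, called for both siRNAs, differed between them by 0.04 (SE 0.06), -0.01 (SE 0.08), -0.15 (SE 0.10) and -0.06 (SE 0.07), with no call. RBM26-AS1 (-0.16, SE 0.08) and STEAP1B-AS1 (0.02, SE 0.06), also called for both, were likewise not called between them. PSMG3-AS1 and KCNAB1-AS2 were higher in siATM than in sip53 by 0.27 (SE 0.05, adjusted p = 0.0098) and 0.23 (SE 0.07, adjusted p = 0.0426).

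Both genes of a pair differed between siATM and sip53 in 17 of 150 pairs, 15 in the same direction, of which 5 were higher and 10 lower in siATM. WWTR1-AS1 and WWTR1, a coactivator of the Hippo pathway, start 185 bases apart. WWTR1-AS1 measured 6.65 and 6.51 in siATM and 6.21 and 6.22 in sip53 arrays, with 6.40 and 6.41 in siNC arrays. WWTR1 measured 9.41 and 9.50 in siATM and 9.05 and 8.92 in sip53 arrays, with 9.20 and 9.20 in siNC arrays. In both genes siATM arrays were the highest and sip53 arrays the lowest, with a difference of 0.37 for the antisense gene (SE 0.07, adjusted p = 0.00556) and 0.47 for the partner (SE 0.07, adjusted p = 0.00243), and both held in all 6 refits. The same direction was called for JMJD1C, PXN, SH3BP5 and TNS2 (higher in siATM) and for CBR3, GAS6, NHSL1, the PAXIP1-AS2 pair, PCNA, SOCS2, STARD4, THAP7, TMPO and ZBTB11 (lower in siATM). Both genes held in all 6 refits in the WWTR1, PCNA and TMPO pairs. In the other 12 at least 1 gene lost its call: PXN and PAXIP1 lost it in all 6 refits, TNS2-AS1, GAS6-AS1 and THAP7-AS1 in 5, STARD4-AS1 in 4, JMJD1C, STARD4, THAP7 and ZBTB11 in 3, CBR3, CBR3-AS1, SH3BP5 and NHSL1-AS1 in 2, and NHSL1 and SOCS2-AS1 in 1, at adjusted p between 0.0502 and 0.229. Without siATM replicate 1 GAS6-AS1 was -0.18, and without siATM replicate 2 CBR3-AS1 was -0.23 and ZBTB11 -0.19. Same-direction pairs numbered 5 without either sip53 array, 9 without siATM replicate 1 and 7 without siATM replicate 2. SERTAD4 and ST7 were opposed. SERTAD4 was lower in siATM by -1.03 (SE 0.06, adjusted p = 0.000166), and SERTAD4-AS1 higher by 0.27 (SE 0.09, adjusted p = 0.0498). That gave the highest difference of changes, 1.30 (95% interval 1.07 to 1.52). SERTAD4-AS1 lost this call without siATM replicate 1 or 2 (adjusted p of 0.127 and 0.133) and without sip53 replicate 1 or 2 (0.253 and 0.0536). ST7-AS1 was 0.49 higher in siATM and ST7 0.36 lower, with a difference of 0.85 (95% interval 0.57 to 1.12), and ST7 lost its call without siATM replicate 2 (adjusted p = 0.0581) or sip53 replicate 2 (0.0772). The other large differences were those of KDM4A (-0.47), NEBL (-0.38), PRC1 (0.88), CFAP418 (0.90) and USP30 (-0.75). Changes had the same sign in 64.7% of pairs, and Pearson's r across pairs was 0.34.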

How the data were processed

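Total RNA of 6 samples (2 each for siATM, sip53 and siNC) was hybridised to Affymetrix arrays. The deposited values are log2 signals per probe set, as read from their range of 1.33 to 14.2. Background correction, summarisation and normalization by the authors are not given in the sources used here, and neither is a genome build. Scanner files were not used, so there are no detection calls or batches here, and precision is limited by having 6 arrays. Of 53617 probe sets 16098 had 1 gene symbol, 0 several and 37519 were unnamed here. For genes with several probe sets the one with the highest mean over 6 arrays was used. Group means were fitted in 1 model with limma 3.58.1 (R 4.3.3; 7.29 degrees of freedom after moderation, 3 residual). P-values are two-sided, adjusted by Benjamini-Hochberg over 10640 genes. Differences of changes come from limma on the antisense minus partner value per array, with no p and no adjustment of their intervals over the pairs. Start sites are the closest opposite-strand pair in RefSeq, a rule chosen after the data were seen. The fit was tested on simulated data.

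Members and lists were chosen with earlier results of these data known. Named genes are the 12 highest and 12 lowest called changes without overlap between arrays (5 for siATM against sip53), every pair with both genes called, the 3 highest and 3 lowest differences of changes, and the tested genes of the role list. Alternatives were other filters, normalizations and fits, and leaving out each array.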

Additional observations from a re-analysis of the deposited data

How the results depend on the processing

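Of 173 values of named genes 114 were called, and 0 of the called values turned direction under the alternatives that could be run. These were all of them except for values missing from the 70th percentile filter (106 run) and the mean of all probe sets (166 run). Values that were not called could change sign. ZEB2-AS1 (0.05 for siATM against sip53) did so without siATM replicate 2, and PDCD4-AS1 (-0.12 for siATM against siNC) without siNC replicate 2. Median centring gave 31 higher and 21 lower antisense genes for siATM against siNC, 7 and 7 for sip53 against siNC, and 38 and 23 for siATM against sip53. With a filter at the 70th percentile, which tests fewer genes, 35 of 75 antisense genes were called for siATM against siNC (46.7%, against 39.8% of all genes) and 37 for siATM against sip53 (49.3%, against 44.7%), so that both shares lay above those of all genes, and same-direction pairs numbered 5 for siATM and 0 for sip53 against siNC. Without a filter 6 antisense genes were called for sip53 against siNC, or 1.23%, against 3.23% of all genes. Same-direction pairs then numbered 0 for sip53 against siNC and 7 for siATM against sip53. The differences of changes leaving out 0 numbered 55, 43 and 71, over more pairs. Leaving out each array in turn gave 21 to 50 calls for siATM against siNC, 3 to 20 for sip53 against siNC and 34 to 55 for siATM against sip53. Same-direction pairs ranged over 2 to 7, 0 to 1 and 5 to 10, and differences of changes over 26 to 41, 16 to 31 and 28 to 43. In each refit the share of all genes called rose or fell with that of the antisense genes. The cause was not tested. Such fits leave a group with 1 array, which is assumed to vary like the others. Whether the replicate numbers pair the samples is not stated. Same-numbered deviations correlated at 0.117 for siATM and sip53, 0.0363 for siATM and siNC and 0.0277 for sip53 and siNC. With 2 arrays per group these values cannot settle it. With the replicate number as a block 55, 18 and 61 antisense genes were called, or 22.4%, 7.32% and 24.8%. All genes stood at 25.3%, 9.41% and 30.2%. The differences of changes leaving out 0 numbered 42, 29 and 47, and 4 named calls were lost and 3 gained.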

Other observations

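Other non-coding gene classes were counted in the same fit, with no test against the antisense genes. Of 71 tested divergent transcripts (-DT), which start beside a gene and run away from it, 9 rose and 3 fell under siATM, or 16.9% beside 25.5% of all genes, and 5 rose and 3 fell under sip53, or 11.3% beside 10.6%. Of 15 tested intronic transcripts (-IT) GABPB1-IT1 fell under siATM, or 6.67%, and GABPB1-IT1 and RNF216-IT1 fell under sip53, or 13.3%. Of 9 small nucleolar RNA host genes (SNHG) 1 rose and 1 fell under siATM, SNHG17 and SNHG33 in all, or 22.2%, and SNHG16 was called under sip53, or 11.1%. Overlapping transcripts (-OT) had 2 tested members, neither of them called.

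Antisense genes under the filter were called in a few cases when no filter was used. IDH1-AS1, named for isocitrate dehydrogenase, measured 5.77 and 5.87 in siATM, 5.39 and 5.46 in sip53, and 5.41 and 5.24 in siNC arrays, a log2 difference of 0.49 against siNC (adjusted p = 0.0164 without the filter). SLC9A9-AS1 (0.48), LARS2-AS1 (-0.56) and UST-AS1 (-0.32) were the others under siATM. That makes 2 higher and 2 lower among the 243 antisense genes under the filter. In this fit 40 of all 489 antisense genes were called, or 8.18%, against 12.4% of all genes. The SLC9A9-AS1 arrays lay between 2.85 and 3.54, far below the filter of 5.96. Several antisense genes had more than 1 probe set. The 3 of PSMB8-AS1 carried identical values and count as 1 measurement. For C10orf95-AS1 the brighter probe set differed by 0.22 and the other by -0.00 under siATM, so its probe sets disagreed. Those of ZEB2-AS1 had opposite signs under siATM, -0.12 in the one used and 0.21 in the other, which averaged 4.39. For RBM26-AS1 both were higher under sip53, by 0.45 in the one used and by 0.17 in the other, which averaged 4.26. Both of these other probe sets lie below the filter.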
